A study of Mus musculus with 16 samples.

Results

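The MHC class II presentation genes were followed through mouse cortex carrying tau with the P301S mutation and 2, 1 or no working copies of Trem2, a lipid-sensing receptor of microglia. The members were the rows with the symbols H2-Aa, H2-Ab1, H2-Eb1, Cd74 and H2-DMa, and all 5 were found among the 24058 genes listed. The study took cortex from 16 mice aged 8 to 9 months, with 4 libraries in each of 4 genotype groups and 2 females and 2 males in each group. The control group was TREM2+/+ without the transgene. The other groups were P301S+ TREM2+/+, P301S+ TREM2+/- (the heterozygotes) and P301S+ TREM2-/- (the knockouts). All groups shared the strain label C57BL/6; C3, and the sources used here do not name the promoter that drives the transgene. Libraries are named by genotype and a number that follows the order of deposit and pairs nothing. Each was taken as 1 mouse, and since the labels do not say how samples were split, the p-values measure the spread between these samples.

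MHC class II molecules show peptides from engulfed proteins to CD4+ T cells. An alpha chain (H2-Aa) and a beta chain (H2-Ab1) form the I-A molecule, and H2-Eb1 is the beta chain of I-E. The invariant chain Cd74 guards the new peptide groove and steers the pair to endosomes, where H2-DM, with H2-DMa as its alpha chain, exchanges a remnant of Cd74 for peptide. In brain the molecules are scarce at rest and are made by activated microglia, by macrophages at the borders of the brain and by dendritic and B cells.

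Expression is given as RPKM, the reads of a gene divided by its length and scaled to a common library size. The libraries came from a kit that reads the 3′ end of transcripts, so dividing by gene length does not put members on 1 scale, and levels are compared between groups and not between members. The RPKM values could be turned back into whole reads, and the libraries held 2.55 to 14.47 M reads. Member counts were low: from 3 to 196 reads a library for H2-Aa, 3 to 68 for H2-Ab1, 4 to 73 for H2-Eb1, 0 to 37 for Cd74 and 27 to 193 for H2-DMa. Control replicate 3, a female, stood apart: its median Pearson r with the other libraries over 12015 genes was 0.760, against 0.938 to 0.979 for the other 15. Trem2 itself averaged 27.0 ± 8.69 RPKM (SD, n = 4) in the P301S+ TREM2+/+ libraries, against 12.9 ± 8.98 in the heterozygotes, 2.09 ± 1.11 in the knockouts and 12.4 ± 5.53 in the control group. Every knockout was below every library of the other groups, but the heterozygotes overlapped the P301S+ TREM2+/+ mice, with heterozygote replicate 3 at 25.2 RPKM.

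The 4 H2 members lie within 197.1 kilobases of chromosome 17 on GRCm38 (mm10). H2-DMa spans 34119541 to 34139101 and H2-Ab1 34257689 to 34269419 on the plus strand, H2-Aa 34282744 to 34287823 on the minus strand and H2-Eb1 34305867 to 34316674 on the plus strand. Trem2 is on the same chromosome, 14.03 Mb beyond H2-Eb1. No source used here names the H2 haplotype of a mouse, so Trem2 genotype and a linked haplotype cannot be told apart. Brd2 overlaps H2-DMa on the other strand over 3094 bases, and the strand setting of the counting is not named either, so some reads could belong to Brd2.

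Class II genes are switched on through a shared promoter module. Its X box is bound by the RFX complex, its Y box, a reversed CCAAT, by NF-Y, and the coactivator Ciita docks on both. The promoters of H2-Aa (a chain of I-A), H2-Eb1 (a chain of I-E) and the peptide editor H2-DMa are therefore shown side by side. They are the 110 bases before the start in RefSeq's GRCm38.p6 table, 5′ to 3′ in the direction of the gene. GCAACT (part of the X box) and CTGATTGG (the Y box) are in capitals where present.
H2-Aa (chr17:34287824-34287933, minus strand): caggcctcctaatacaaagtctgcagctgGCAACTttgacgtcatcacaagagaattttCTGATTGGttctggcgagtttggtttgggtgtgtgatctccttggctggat
H2-Eb1 (chr17:34305757-34305866, plus strand): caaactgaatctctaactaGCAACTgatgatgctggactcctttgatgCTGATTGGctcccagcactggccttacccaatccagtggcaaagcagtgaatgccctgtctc
H2-DMa (chr17:34122722-34122831, plus strand): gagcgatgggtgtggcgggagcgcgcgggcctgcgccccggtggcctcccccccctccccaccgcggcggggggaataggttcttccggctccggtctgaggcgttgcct

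In H2-Aa the 2 words start 81 and 51 bases before the start, 30 apart, and in H2-Eb1 they start 91 and 62 bases before it, 29 apart. H2-DMa held neither word in the 250 bases before either of its listed starts, which says only that these letters are not there. The H2-DMa bases shown lie within a promoter window of Brd2 on the other strand (34122558 to 34122857). Its other window, further downstream, is not shown. The table had entries for 3 of the 5 members. Searched on both strands over the 250 bases before the start, GCAACT was found in 9.01% of 32851 promoter windows and CTGATTGG in 3.83%. The pair in this order, with starts 25 to 35 bases apart, was found in 5 windows (0.0152%): H2-Aa, H2-Eb1, H2-Eb2, Gstz1 and Tigd3. The letters and the spacing were set after the H2-Aa and H2-Eb1 promoters had been seen, so the small share is a description only.

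H2-Aa, the I-A alpha chain, had the largest P301S and complete loss differences of the members on the log2(RPKM + 1) scale used below. In the P301S+ TREM2+/+ mice it was at 26.4, 7.54, 9.95 and 8.19 RPKM, and in the controls at 3.15, 3.36, 0.894 and 0.945. The 4 transgenic libraries all lay above the 4 controls. The heterozygotes were at 1.16, 5.31, 10.4 and 11.6 RPKM and the knockouts at 4.11, 1.10, 2.50 and 2.50. All knockouts lay below all P301S+ TREM2+/+ mice, 3 of them within the range of the controls and replicate 1 above it, while the heterozygotes ran from control level in 1 female to the P301S+ TREM2+/+ range in both males. The means were 13.01 ± 8.97 RPKM (SD, n = 4) in the P301S+ TREM2+/+ group, 7.10 ± 4.80 with 1 copy of Trem2, 2.55 ± 1.23 with none and 2.09 ± 1.35 in the control group.

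H2-Ab1, the partner beta chain, showed the same order down to the knockouts at a lower read count. It was at 8.20, 3.89, 2.64 and 1.65 RPKM in the P301S+ TREM2+/+ mice and at 0.792, 0.695, 1.12 and 0.423 in the controls. In the heterozygotes it was at 0.3998, 1.47, 2.61 and 2.14 RPKM, and in the knockouts at 0.613, 0.985, 0.653 and 0.497. Again the P301S+ TREM2+/+ libraries lay above all controls and all knockouts, and controls and knockouts covered the same range. The means were 4.10 ± 2.88, 1.66 ± 0.960, 0.687 ± 0.209 and 0.758 ± 0.288 RPKM (SD, n = 4) in P301S+ TREM2+/+, heterozygous, knockout and control mice.

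H2-Eb1, the I-E beta chain, overlapped between all pairs of groups. The P301S+ TREM2+/+ mice were at 6.29, 1.64, 3.19 and 1.61 RPKM, the heterozygotes at 0.686, 2.41, 1.96 and 3.34, the knockouts at 1.21, 2.11, 0.601 and 0.622 and the controls at 0.970, 1.66, 2.29 and 0.404. The highest value was again in P301S+ TREM2+/+ replicate 1, the female that was also highest for H2-Aa and H2-Ab1.

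Cd74, the invariant chain (chromosome 18, 60803848 to 60812652, plus strand), was at 3.76, 0.772, 0.835 and 1.28 RPKM in the P301S+ TREM2+/+ mice and at 0.129, 0, 0.315 and 0.209 in the knockouts. The knockouts together held 7 Cd74 reads and all lay below the P301S+ TREM2+/+ mice, which held 74. The heterozygotes were at 0, 0.292, 1.32 and 1.54 RPKM. The controls were at 0.191, 0.537, 3.65 and 0.119, and the high value was control replicate 3, the library that stood apart. Without it the control mean went from 1.12 to 0.282 RPKM, and the ratio of P301S+ TREM2+/+ to control means from 1.48 to 5.89. Without P301S+ TREM2+/+ replicate 1 instead, that group's mean was 0.963 RPKM and the ratio 0.858. The direction of this ratio of means therefore rests on single libraries.

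H2-DMa, the peptide editor's alpha chain, varied least. It was at 11.02, 8.32, 7.72 and 8.61 RPKM in the P301S+ TREM2+/+ mice, at 5.18, 9.52, 5.83 and 6.79 in the heterozygotes, at 6.62, 6.38, 5.71 and 9.39 in the knockouts and at 5.78, 8.04, 11.4 and 7.01 in the controls. All groups overlapped, and the highest single value was control replicate 3.

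**Figure D1:**
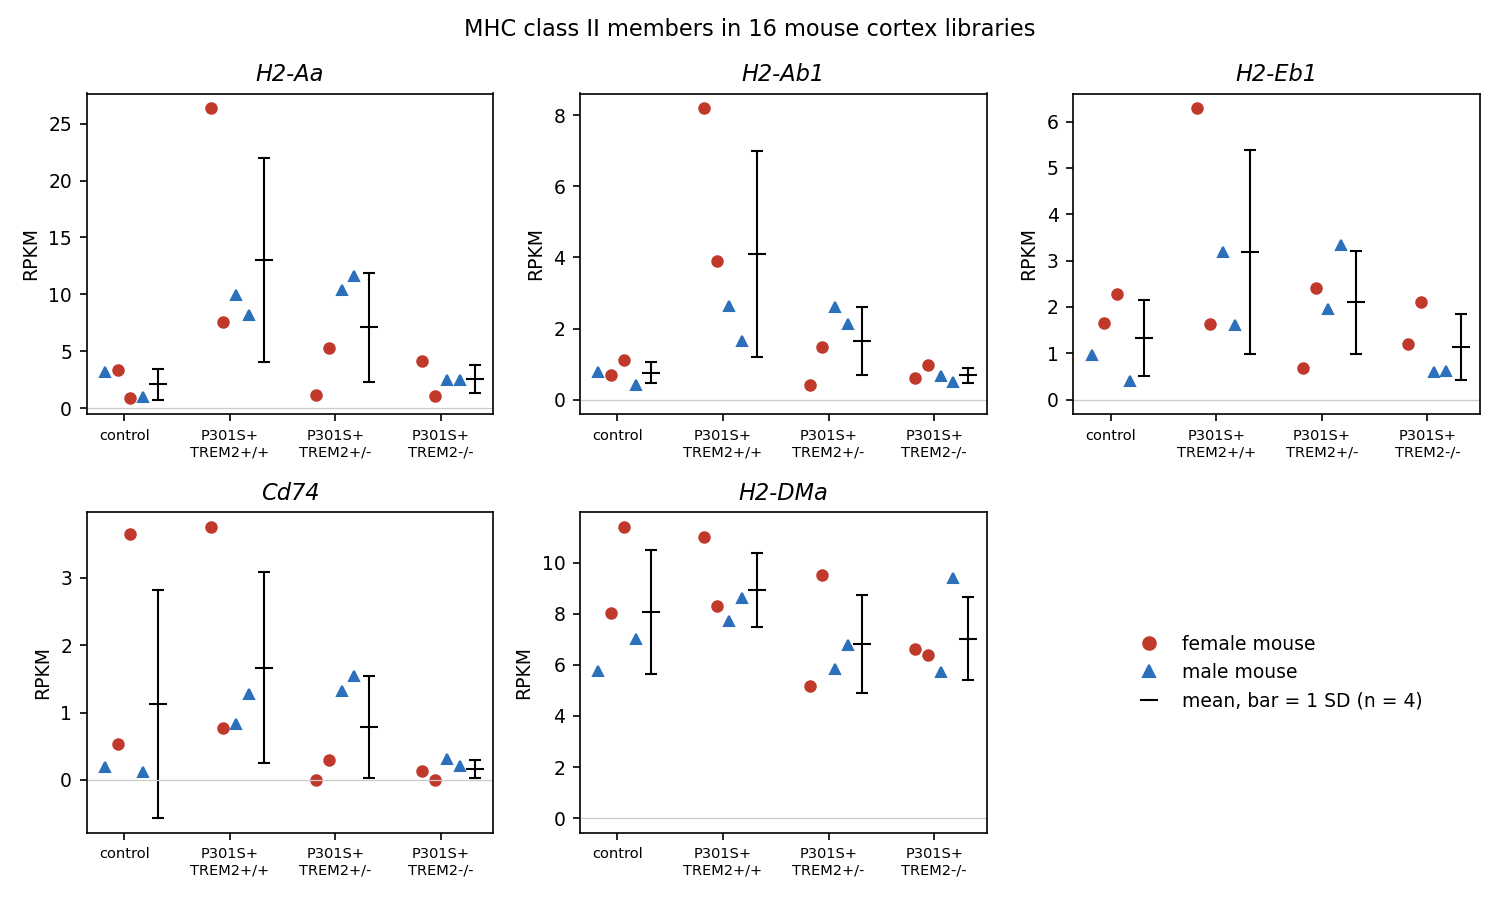
RPKM (linear axis, own scale in each panel) of the 5 members in each library, by genotype group, with circles for female and triangles for male mice and a mean with a bar of 1 SD (n = 4). The 4 P301S+ TREM2+/+ libraries sit above all controls and knockouts for H2-Aa and H2-Ab1, H2-Eb1 and H2-DMa overlap throughout, and 1 control stands out for Cd74.

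Differences were taken on the log2(RPKM + 1) scale with limma, adjusting for sex, over the 12015 genes with a mean of at least 1 RPKM, and p-values were adjusted over all of them by the Benjamini-Hochberg method. The added 1 understates changes of members near 1 RPKM. Of the 5 members 4 entered the test. Cd74, with a mean of 0.934 RPKM, did not, and its values below come from a fit to all 18911 genes above 0. H2-Ab1 averaged under 1 RPKM in controls and knockouts and passed through the other groups, so counts over the tested members describe them and support nothing.

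Between tau mice with both Trem2 copies and controls, the 2 chains of I-A differed most. H2-Aa was higher by 2.12 log2 units (SE 0.53, 95% interval 0.99 to 3.24, limma's unadjusted p = 0.0012, adjusted p = 0.265), with a ratio of mean RPKM of 6.23. H2-Ab1 was higher by 1.39 (SE 0.34, 0.67 to 2.12, unadjusted p = 0.0010, adjusted p = 0.265), with a ratio of 5.41. H2-Eb1 was higher by 0.78 (SE 0.36, unadjusted p = 0.0496, adjusted p = 0.362), Cd74 by 0.47 (interval -0.50 to 1.44) and H2-DMa by 0.16 (interval -0.29 to 0.60, adjusted p = 0.737). No member passed an adjusted p of 0.05, and 0% of all genes tested did. An unadjusted p under 0.05 with a higher value was reached by 3 of the 4 tested members and by 9.12% of all genes. Groups that did not overlap, all transgenic mice higher, were found for 2 of the 4 and for 3.55% of all genes. The members' median was 1.09 log2 units, beside 0.06 over all genes tested.

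The comparison leaned in part on single libraries. Without P301S+ TREM2+/+ replicate 1, H2-Aa was higher by 1.65 with a ratio of means of 4.10, H2-Ab1 by 1.056 with a ratio of 3.60, H2-Eb1 by 0.50 with an unadjusted p of 0.19 in limma, and Cd74 by 0.14 with an unadjusted p of 0.761. Without control replicate 3 the differences were 1.95 for H2-Aa, 1.46 for H2-Ab1, 0.92 for H2-Eb1 and 0.97 for Cd74, and the adjusted p-values of the first 2 were 0.132 and 0.106. That of H2-DMa was 0.30 without control replicate 3 and 0.084 without P301S+ TREM2+/+ replicate 1.

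Complete loss of Trem2 in tau mice went with lower values of the same genes. Against P301S+ TREM2+/+ mice, H2-Aa was lower in knockouts by 1.87 log2 units (log2 difference -1.87, SE 0.53, interval -3.00 to -0.74, unadjusted p = 0.0031, adjusted p = 0.426), and its P301S+ TREM2+/+ mean was 5.10 times the knockout mean. For H2-Ab1 the log2 difference was -1.44 (SE 0.34, interval -2.17 to -0.72, unadjusted p = 7.4e-04, adjusted p = 0.426) and the ratio 5.96. It was -0.89 for H2-Eb1 (unadjusted p = 0.028, adjusted p = 0.447), -1.07 for Cd74 (interval -2.04 to -0.11) and -0.32 for H2-DMa (interval -0.76 to 0.13, adjusted p = 0.626). No member passed the adjusted threshold, which 0.00832% of all genes, Trem2 alone, did (log2 difference -3.17, adjusted p = 0.040). Of the 4 tested members 3 had an unadjusted p under 0.05 with a lower value, as had 4.47% of all genes. For 2 of the 4 all knockouts were lower, as for 4.76% of all genes. The members' median was -1.17 beside -0.02 over all genes. This comparison and the one before share the P301S+ TREM2+/+ mice, so a high library there moves both. Without replicate 1 of that group the log2 difference of H2-Aa was -1.40, with a ratio of 3.36, that of H2-Ab1 -1.11, with a ratio of 3.97, that of H2-Eb1 -0.61 with an unadjusted p of 0.115 and that of Cd74 -0.74 with an unadjusted p of 0.123.

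When limma was given a weight for each library, estimated from how far it strayed from the fit, H2-Ab1 passed the adjusted threshold in both comparisons (1.53 higher, adjusted p = 0.0429, and log2 difference -1.51, adjusted p = 0.0405). The same fit called 1.64% of all genes in the P301S comparison and 5.74% in complete loss. H2-Aa stayed above the threshold at adjusted p = 0.0618 and 0.0629. The H2-Ab1 call was lost when sex was left out of the weighted fit (adjusted p = 0.0638 and 0.0637) and with limma-voom and library weights (0.0651 and 0.0562). No other alternative took a tested member past it.

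**Figure D2:**
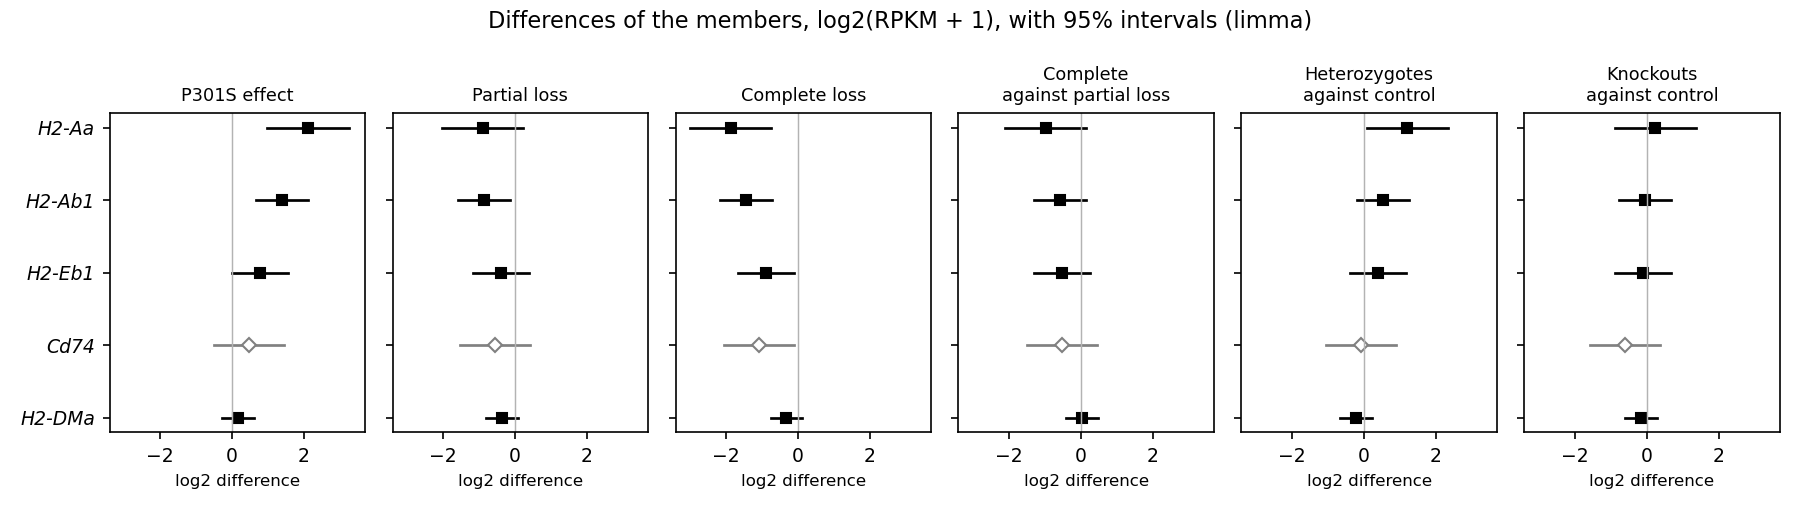
Differences of each member in the 6 comparisons, on the log2(RPKM + 1) scale, with 95% intervals from limma; filled squares passed the filter on low values, and the open diamonds of Cd74 come from the fit without it. H2-Aa and H2-Ab1 lie above 0 for the P301S effect (2.12 and 1.39) and below 0 for complete loss (-1.87 and -1.44). H2-DMa runs from -0.36 in partial loss to 0.16 for the P301S effect, and each of its intervals includes 0.

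With 1 Trem2 copy the means of the 3 chains and Cd74 lay between those of P301S+ TREM2+/+ mice and knockouts. Partial loss gave log2 differences of -0.90 for H2-Aa (interval -2.03 to 0.23), -0.87 for H2-Ab1 (interval -1.59 to -0.14, limma's unadjusted p = 0.022), -0.38 for H2-Eb1 (interval -1.15 to 0.40), -0.55 for Cd74 and -0.36 for H2-DMa. The adjusted p of each tested member was 0.9996, 0% of all genes passed, and the 1 of 4 members with a lower value at an unadjusted p under 0.05 stands beside 1.27% of all genes. Without P301S+ TREM2+/+ replicate 1 the difference of H2-Aa was -0.43 and that of H2-Ab1 -0.53, with an unadjusted p of 0.102. Against controls, heterozygotes were higher by 1.22 for H2-Aa (interval 0.09 to 2.34, unadjusted p = 0.036, adjusted p = 0.497) and had differences of 0.52 for H2-Ab1 (interval -0.20 to 1.25), 0.40 for H2-Eb1, -0.08 for Cd74 and -0.20 for H2-DMa. Without control replicate 3 that of Cd74 was 0.41. The 1 member of 4 with a higher value at an unadjusted p under 0.05 stands beside 6.39% of all genes, and 0% passed the adjusted threshold.

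Knockouts differed from heterozygotes by -0.97 for H2-Aa (interval -2.10 to 0.15), -0.58 for H2-Ab1 (interval -1.30 to 0.15), -0.51 for H2-Eb1 (interval -1.29 to 0.27), -0.52 for Cd74 and 0.05 for H2-DMa. No gene among all tested passed the threshold there (0%). Between knockouts and controls the difference was 0.24 for H2-Aa (interval -0.88 to 1.37), -0.05 for H2-Ab1 (interval -0.78 to 0.67), -0.11 for H2-Eb1 (interval -0.89 to 0.67), -0.16 for H2-DMa (interval -0.60 to 0.28) and -0.60 for Cd74 (interval -1.57 to 0.37), and 0% of genes passed. Without control replicate 3 that of Cd74 was -0.11. For the 3 chains these intervals leave room for a change of RPKM + 1 of over 1.5-fold either way. The room is wider in RPKM itself. In order of mean level H2-Aa and H2-Ab1 ran from P301S+ TREM2+/+ mice through heterozygotes to knockouts and controls, and neighbours in that order overlapped and did not pass the adjusted threshold.

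Among the heterozygotes both females lay below both males for H2-Aa, H2-Ab1 and Cd74. For H2-Aa the 2 females averaged 3.23 RPKM and the 2 males 10.97, and in the P301S+ TREM2+/+ group the females averaged 16.96 and the males 9.07. The partial loss difference was therefore -2.05 in females and 0.25 in males, a gap of -2.30 (interval -4.37 to -0.24, limma interaction, unadjusted p = 0.032, adjusted p = 0.739). For H2-Ab1 it was -1.85 in females and 0.12 in males (gap -1.97, unadjusted p = 0.0017, adjusted p = 0.537), for Cd74 -1.35 and 0.25 (gap -1.60, unadjusted p = 0.043, adjusted p = 0.747) and for H2-Eb1 -0.87 and 0.12 (gap -0.99, unadjusted p = 0.167). None passed the adjusted threshold. Each cell of this comparison holds 2 mice, and the female heterozygotes were also low for Trem2 (4.50 and 8.37 RPKM) where the males were at 25.2 and 13.6, and for the microglial adaptor Tyrobp (24.1 and 46.3 against 118 and 107). Their part in the sex gap was not tested. For complete loss the differences had 1 sign in both sexes: H2-Aa was at -2.22 in females and -1.52 in males and H2-Ab1 at -1.91 and -0.98.

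Members were correlated over the 16 libraries to different degrees. Of the 10 pairs of members, H2-Aa and H2-Ab1 had the highest Pearson r of log2(RPKM + 1) over the 16 libraries (r = 0.86, permutation p = 4e-05, adjusted p = 4e-04). Their Spearman rho was 0.76 (permutation p = 8.1e-04, adjusted p = 0.0027), below the rho of H2-Ab1 with H2-Eb1 and with Cd74. For H2-Aa and H2-Ab1, r was 0.77 without the 2 libraries farthest from the median of H2-Aa. After genotype means were removed, r was 0.67 (permutation p = 0.033, adjusted p = 0.0823). H2-Ab1 and H2-Eb1 had r = 0.83 and rho = 0.79 (permutation p = 1.2e-04 and 4.8e-04, adjusted p = 6e-04 and 0.0027), 0.83 without the 2 farthest libraries and 0.76 within genotypes (permutation p = 0.0060, adjusted p = 0.0476). For H2-Aa and Cd74, r was 0.54 over all libraries (permutation p = 0.030, adjusted p = 0.0426) and rho was 0.62 (permutation p = 0.011, adjusted p = 0.0229). Without control replicate 3, r was 0.93 and rho 0.92. Without the 2 farthest libraries, which left control replicate 3 in, r was 0.25, so its size changed with the libraries kept. Within genotypes r was 0.43 (permutation p = 0.149, adjusted p = 0.186). Cd74 had higher r with the other chains. With H2-Ab1, r was 0.70 (permutation p = 0.0035, adjusted p = 0.0069) and rho 0.77. That r was 0.60 without the 2 farthest libraries and 0.66 within genotypes (permutation p = 0.0095, adjusted p = 0.0476). With H2-Eb1, r was 0.72 (permutation p = 0.0016, adjusted p = 0.0040) and rho 0.64. That r was 0.55 without the 2 farthest libraries and 0.66 within genotypes (permutation p = 0.015, adjusted p = 0.0513). H2-DMa had r = 0.63 with Cd74 (permutation p = 0.0086, adjusted p = 0.0143; rho = 0.53, permutation p = 0.035, adjusted p = 0.0498), which was 0.22 without the 2 farthest libraries, and r = 0.50 with H2-Eb1 (permutation p = 0.048, adjusted p = 0.0598; rho = 0.45, permutation p = 0.0835, adjusted p = 0.104). H2-Aa and H2-DMa had the lowest of all pairs, at r = 0.26 (permutation p = 0.337, adjusted p = 0.337; rho = 0.15, permutation p = 0.589, adjusted p = 0.589).

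Genes whose profile was most like the mean standardised profile of the 4 tested members were, over 16 libraries, Tgm2 (r = 0.87), Anapc13, Ndufb10, Cd52, Egln2, Dnajc1, Plch2, Atp5j2, Paf1 and Eif3c (r = 0.82). Over the 15 libraries without control replicate 3 they were Slc12a9 (r = 0.93), Slc25a1, B9d2, Ndufb7, Ndufs6, Tpm2, Capn2, Wdr43, Mrpl52 and Ndufb10 (r = 0.88). The lists of 10 shared 1 gene, Ndufb10, so the nearest genes changed with a single library. By comparison H2-DMa itself had r = 0.65 with the profile it is part of, and Tyrobp r = 0.65 over 16 libraries.

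The other genes of the pathway were read from 6 lists. Of the other class II chains and peptide editors, 6 of 7 were listed and only H2-DMb1, the partner of H2-DMa, passed the filter. Its mean was 2.75 ± 0.509 RPKM (SD, n = 4) with tau and both Trem2 copies, 2.09 ± 1.19 in the control group and 1.74 ± 0.738 in the knockouts, with overlap (differences 0.35 and -0.48, adjusted p = 0.650 and 0.655). H2-Oa held 40 reads over all libraries, H2-Ob 156, H2-Eb2 3 and H2-DMb2 1, and H2-Ea-ps was at 0 in every library.

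Of the 8 class II transcription genes 6 were tested and none had an unadjusted p under 0.05 in the P301S or complete loss comparison. Their medians were 0.20 and 0.04 log2 units. Nfyb, a subunit of NF-Y, was higher in all P301S+ TREM2+/+ mice than in controls and knockouts, but by only 0.27 and with a complete loss difference of -0.24 (adjusted p = 0.376 and 0.556). Rfx5 and Rfxank, RFX subunits, had P301S differences of 0.30 and 0.26 (adjusted p = 0.477 and 0.540). Ciita, the coactivator that sets class II output, had 38 reads over all libraries and at most 14 in 1, too few to compare.

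Among the 9 genes of peptide supply and turnover 8 were tested, and in the P301S comparison 2 had an unadjusted p under 0.05 with higher values, beside 9.12% of all genes. Ctss, the cathepsin that trims Cd74, averaged 222 ± 35.5 RPKM in the P301S+ TREM2+/+ group against 121 ± 16.1 in the control group, without overlap (difference 0.87, adjusted p = 0.328). Ctsb, a broad lysosomal cathepsin, was at 124 ± 23.2 and 78.2 ± 32.9 (difference 0.76, adjusted p = 0.275). Ifi30, the lysosomal thiol reductase that opens disulphide bonds of antigens, had a difference of 0.87 (adjusted p = 0.391), and Ctsl one of 0.40 (adjusted p = 0.640). In complete loss none of the 8 had an unadjusted p under 0.05: Ctss was at -0.39, Ifi30 at -0.81 and Ctsl at 0.33.

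Of the 8 interferon-gamma input genes 6 were tested. Ifngr2, a receptor subunit, was lower by 0.53 in the P301S comparison (difference -0.53, adjusted p = 0.327) and 0.60 higher in complete loss (adjusted p = 0.426), the reverse of the class II chains. Ifngr1, its partner, was at -0.37 and 0.03. Jak2, a kinase that carries the signal, had a P301S difference of 0.27 and a complete loss difference of 0.01. Ifng itself had 6 reads over all libraries. On the costimulation and T cell side 1 of 9 genes was tested, Cd4, the coreceptor for class II, which averaged 2.61 ± 1.497 RPKM in the P301S+ TREM2+/+ group against 1.10 ± 0.935 in the control group (difference 0.79, adjusted p = 0.405). Cd80 had 9 reads, Ctla4 4 and Lag3 8.

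Genes of other function that sit among the class II genes were read for comparison, and 5 of 6 were tested. Psmb8, an immunoproteasome subunit of class I presentation that lies at 34197721 to 34201454 between H2-DMa and H2-Ab1, had differences in the same directions as the I-A chains. It averaged 10.5 ± 2.70 RPKM in the P301S+ TREM2+/+ group, 3.27 ± 1.75 in the control group and 4.89 ± 1.26 in the knockouts, and all 4 P301S+ TREM2+/+ libraries lay above the other 2 groups (differences 1.53 and -0.96, adjusted p = 0.265 and 0.426). The other tested neighbours overlapped between these groups: Psmb9 had differences of 0.63 and -0.0031, Tap1 of 0.28 and -0.36, Tap2 of -0.51 and 0.14 and Brd2 of -0.12 and 0.58. Btnl2 was at 0 in every library. Differences between these genes were not tested.

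**Figure D3:**
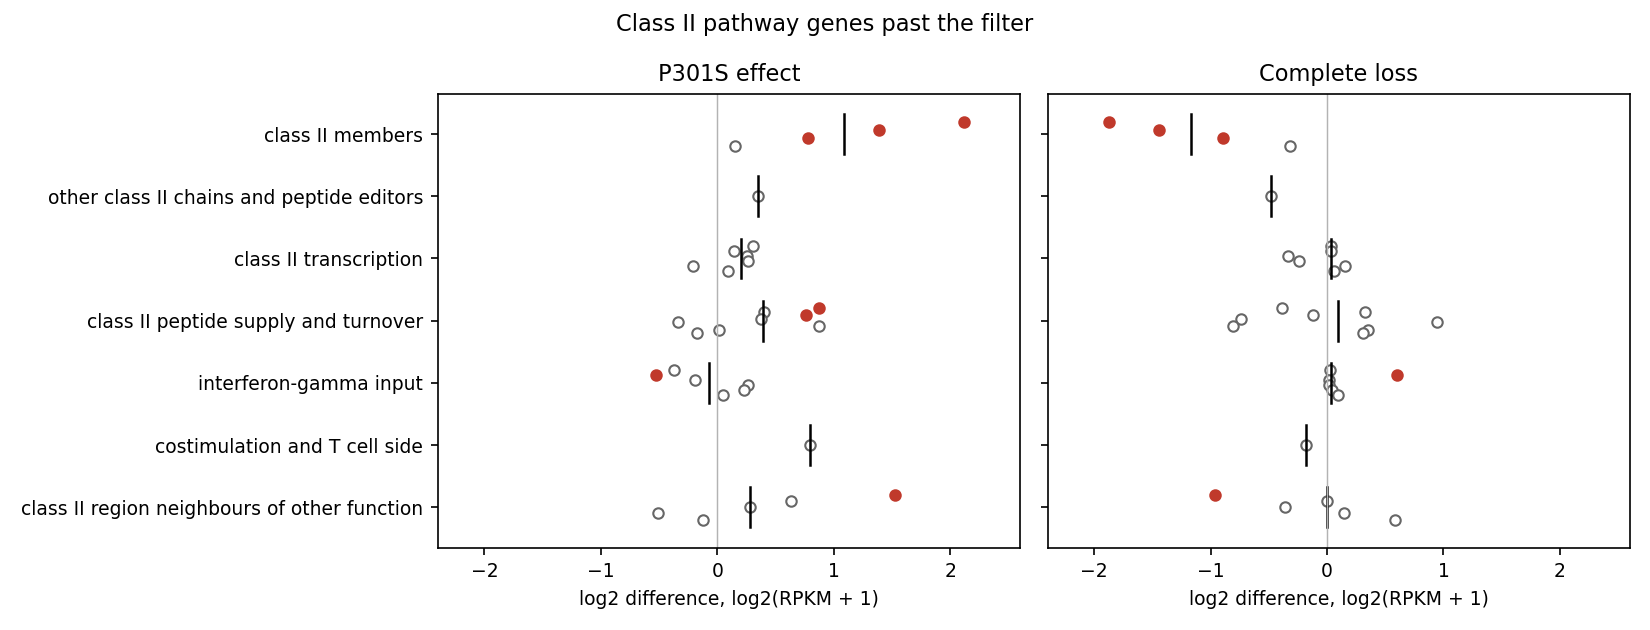
Differences on the log2(RPKM + 1) scale of every class II pathway gene past the filter, by list, for the P301S effect and complete loss; filled points have a limma unadjusted p under 0.05, and vertical lines are list medians. The class II members have medians of 1.09 and -1.17, while the transcription genes have medians of 0.20 and 0.04.

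In bulk tissue, more cells of a type and more RNA per cell cannot be told apart. The summed RPKM of 9 microglia markers was 239 to 374 with tau and both Trem2 copies and 170 to 317 in controls. It was 156 to 496 in the heterozygotes and 166 to 326 in the knockouts, and the groups overlapped. The highest control sum, 317, was control replicate 3, the library that stood apart. The other controls were at 178, 185 and 170, below every P301S+ TREM2+/+ library. The 8 genes of disease-associated microglia summed to 55.3 to 115 in P301S+ TREM2+/+ mice and 27.0 to 34.4 in controls, without overlap, and to 21.9 to 63.1 in knockouts. P301S+ TREM2+/+ replicate 1, highest for H2-Aa, H2-Ab1 and H2-Eb1, was also highest for this sum. Tyrobp, the signalling adaptor of Trem2, had differences of 1.65 and -1.05 in the P301S and complete loss comparisons (adjusted p = 0.265 and 0.439). The part of microglial number or state in the class II differences was not tested.

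Per 100 RPKM of summed microglia markers, a ratio chosen after the values were seen, H2-Aa averaged 4.03 ± 2.06 (SD, n = 4) in the P301S+ TREM2+/+ group and 1.11 ± 0.803 in the control group, with the lowest of the first at 2.41 and the highest of the second at 1.82. Heterozygotes were at 2.01 ± 0.928 and knockouts at 1.24 ± 0.846, with the highest knockout at 2.48 inside the P301S+ TREM2+/+ range. H2-Ab1 averaged 1.25 ± 0.672 in the P301S+ TREM2+/+ group, above every library of the 3 other groups, whose means were 0.488 in heterozygotes, 0.342 in knockouts and 0.356 in controls. H2-Eb1 averaged 0.977 ± 0.516 in the P301S+ TREM2+/+ group, 0.601 ± 0.281 in the control group and 0.597 ± 0.473 in the knockouts, and Cd74 averaged 0.515 ± 0.353, 0.405 ± 0.507 and 0.0695 ± 0.0558. The P301S+ TREM2+/+ group overlapped the controls for both, and the knockouts for H2-Eb1. H2-DMa per 100 RPKM of markers averaged 2.93 ± 0.491 in that group and 3.83 ± 0.499 in the control group, with overlap.

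**Figure D4:**
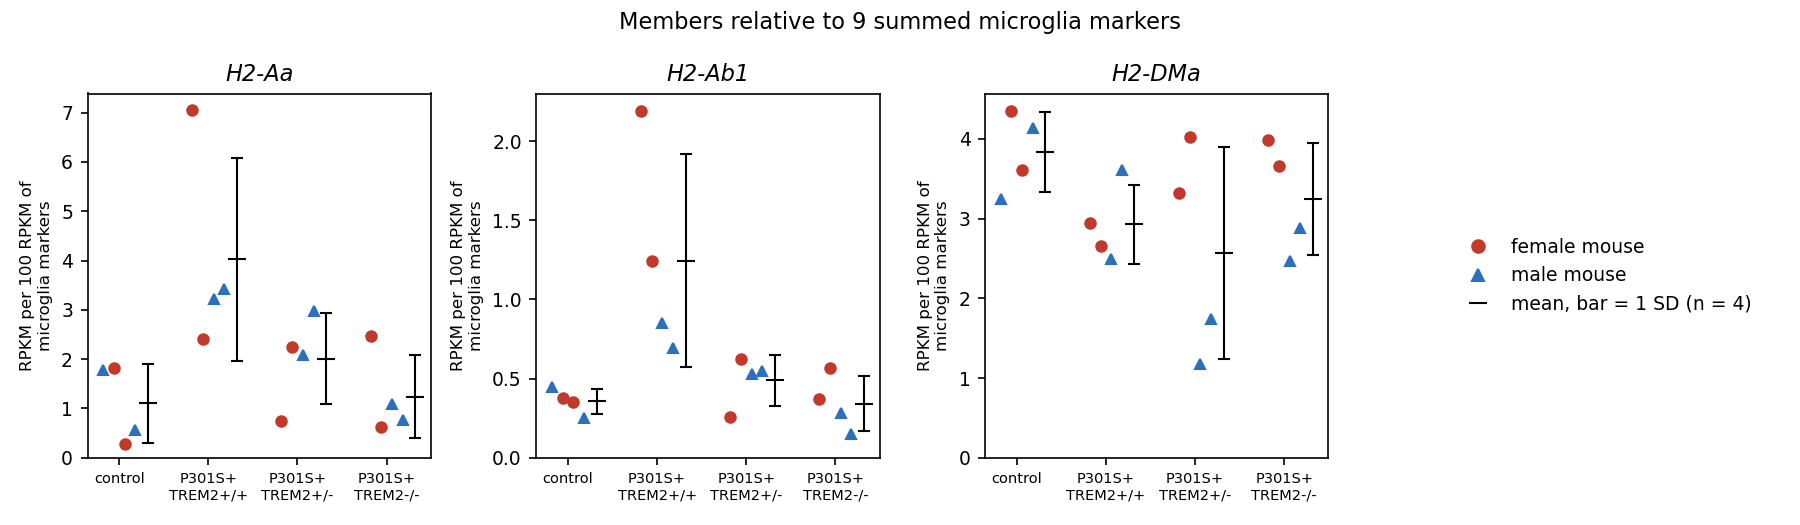
RPKM of H2-Aa, H2-Ab1 and H2-DMa per 100 RPKM of 9 summed microglia markers in each library (linear axes from 0, own scale in each panel), with means and bars of 1 SD (n = 4). H2-Ab1 is higher in every P301S+ TREM2+/+ library than in any other, and H2-DMa overlaps between groups.

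Of other cells that can bear class II, B and dendritic cells left few reads. The 5 B cell genes listed held 31 reads in all libraries together, with Ms4a1 and Pax5 at 0 throughout. The 7 dendritic cell genes held 641 reads and summed to 0.641 to 1.89 RPKM in the P301S+ TREM2+/+ group and 1.28 to 2.15 in the control group, and P301S+ TREM2+/+ replicate 1 had the lowest sum of all 16 libraries. For T cells, of which the CD4+ cells recognise class II, 6 genes held 259 reads, and Lck alone held 212 of them. Their sums were 0.738 to 2.30 RPKM in the P301S+ TREM2+/+ group and 0.705 to 2.71 in the control group. The 8 genes of border-associated macrophages held 2238 reads and summed to 8.27 to 18.3 RPKM in the P301S+ TREM2+/+ group, 7.16 to 15.8 in the control group and 7.06 to 10.9 in the knockouts, highest in heterozygote replicate 4 at 21.8 and P301S+ TREM2+/+ replicate 1. Their part in the class II differences was not tested. Choroid plexus genes, a possible sign of how the tissue was cut, had their highest mean in the P301S+ TREM2+/+ group, with overlap. The 5 genes summed to 971 ± 853 RPKM there and 332 ± 186 in the control group, where the highest library was at 528. They summed to 297 ± 240 in the heterozygotes and 364 ± 417 in the knockouts, where replicate 1 was at 988. Ttr held 62970 of the 66339 reads of these genes. Of these 5, all were higher in the P301S comparison (median 0.78) and 4 lower in complete loss (median -0.92), none past the adjusted threshold. The P301S+ TREM2+/+ libraries were at 214, 1643, 1773 and 252 RPKM, and replicate 1, highest for H2-Aa, had the lowest of these sums. The 5 endothelial genes summed to 51.85 to 59.97 RPKM in that group, 39.0 to 52.7 in the control group and 41.6 to 46.8 in the knockouts, without overlap with the knockouts. The part of choroid plexus or vessel tissue in the class II differences was not tested.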

How the data were processed

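Cortex RNA of 16 mice was read as 3′ end libraries, as the labels' protocols state. The submitters' processing notes name the build mm10 and the tools STAR, HTSeq, edgeR and limma, without versions or roles. The authors deposited 1 normalized value per gene and library, taken here as RPKM (reads scaled by gene length and library size). This unit was inferred from the values, because all 18911 genes above 0 came out as whole reads in every library. The tolerance was 1e-05 reads, or a share of 3e-07 of the reads where that was larger. The 24060 rows with a gene hold 24058 symbols, each row was kept, and 1 row without a gene was left out. Libraries held 2.55 to 14.47 M reads, so that 1 read weighs most in the shallowest.

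Values were tested as log2(RPKM + 1) with limma 3.58.1 in R 4.3.3 (trend, genotype and sex, all 16 libraries, 11 residual degrees of freedom, 8 with the sex interaction), over 12015 genes with a mean of at least 1 RPKM, with Benjamini-Hochberg adjustment at 0.05. Correlations used 100000 two-sided permutations. The fit was tested on simulated data, drawn with the same spread for all genes and without a library that stood apart. Members and lists were chosen with earlier results of these data known. Named list genes were those with the smallest p in the P301S comparison, those at 0 in all libraries and Ciita, Ctss, Ctsl, H2-DMb1, Ifng and Cd4. Others (H2-Oa, H2-Ob, H2-Eb2, H2-DMb2, Cd80, Ctla4, Lag3, Tap1 and Brd2) were chosen after their values were seen. Alternatives were another pseudocount, filters, weights, scalings, limma-voom on the recovered reads and leaving out each library. Voom without control replicate 3, library weights without the sex term, and taking Cd74 from a fit without the filter, were chosen after seeing the data.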

Additional observations from a re-analysis of the deposited data

Results flagged for a closer look

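With 4 libraries a group, 20 sets of 4 member values were checked for a library far from the rest, by a gap that chance gives in about 1 set in 20, and 3 stood out. H2-Aa was at 26.4 RPKM in P301S+ TREM2+/+ replicate 1, where the other 3 lay between 7.54 and 9.95. Cd74 was at 3.76 RPKM in the same library, where the others lay between 0.772 and 1.28. Cd74 was at 3.65 RPKM in control replicate 3, where the others lay between 0.119 and 0.537, and this is the library with the lowest correlation with the rest.

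The partial loss difference ran in opposite directions in the sexes for both mice of each sex. For H2-Aa the gap, female minus male, was -2.30 log2 units, and for Cd74 it was -1.60, with adjusted p-values of 0.739 and 0.747 in limma. Neither gap passed the threshold.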

How the results depend on the processing

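No paired analysis was possible because the labels carry no replicate numbers. Over 29 alternatives, 820 of 857 member values kept their direction and side of the threshold or, for Cd74, shifted by under 1 SD.

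With library weights H2-Ab1 passed the threshold (1.53 in the P301S comparison and -1.51 in complete loss), but not with weights and no sex term. Directions turned where values were near 0. For H2-DMa, knockouts against heterozygotes gave -0.14 with library weights, -0.13 with weights and no sex term or with voom and weights and -0.13 to 0.18 with 1 library left out, and heterozygotes against controls gave 0.065, 0.12 and 0.047 with these. For knockouts against controls, H2-Ab1 gave 0.017 with library weights, 0.0074 with weights and no sex term, 0.075 with voom and weights, 0.081 without control replicate 3 and both P301S+ TREM2+/+ females, 0.069 with voom without control replicate 3, and -0.13 to 0.020 with 1 library left out. There H2-Eb1 gave 0.044 without control replicate 3 and both females and -0.29 to 0.035 with 1 library left out, and H2-Aa -0.025 to 0.52.

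Cd74 shifted most. With a pseudocount of 0.1 it was at -2.63 in complete loss, -1.39 in partial loss, -1.24 for knockouts against heterozygotes and -1.42 against controls. With voom it was at 1.35 in the P301S comparison, -2.61, -1.76 and, against controls, -1.26. With voom and weights it was at 2.34, -2.43, -1.44, -0.99 and, for heterozygotes against controls, 0.89. Without control replicate 3 and both females complete loss was at -0.62, and with voom without control replicate 3 the values were 2.22, -2.49 and -1.59.

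Counts of genes called depended on the fit. Library weights called 197 genes in the P301S comparison, 690 in complete loss, 5 in knockouts against heterozygotes, 131 in heterozygotes and 4 in knockouts against controls. With the sex term left out the same weights called 1, 10, 3, 6 and 1, so the weighted calls depend on that term. Voom with weights called 4, 19, 7, 175 and 3, and voom without control replicate 3 called 8, 14, 2, 4 and 1. Leaving out control replicate 3 and both females called 44 in knockouts against heterozygotes, 0 in complete loss, and 5 and 1 against controls. The genotypes compared alone gave 7 in complete loss and 1 in knockouts against heterozygotes. No filter and voom gave 0 in complete loss, and voom and quantile scaling 1 each in both comparisons against controls. With 1 library left out, counts ran from 0 to 14 in complete loss, 0 to 5 in the P301S comparison, 0 to 2, 0 to 3 and 0 to 1 in the others, highest without control replicate 3. Partial loss stayed at 0 throughout. The causes were not tested. A mean filter of 5 RPKM left H2-Ab1 and H2-Eb1 out. Depth limits the members, with as few as 0 reads of Cd74 and 3 of H2-Aa and H2-Ab1 in a library.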
